A study of Mus musculus with 6 samples.

Results

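The 36 genes described here encode cyclins and their kinases, the factors that license and copy DNA, and the kinases, motors and centromere proteins of mitosis. They were chosen by gene symbol, are 36 of the 54115 annotated genes in the data, and all 36 were among the 17152 genes with enough reads to be tested. RNA-sequencing was carried out on satellite cells (muscle stem cells that rest beside the fibres they repair), which were sorted from uninjured hindlimb muscle as α7-INTEGRIN and CD34 positive cells lacking CD31, CD11b, SCA-1 and CD45. There were 3 *Pax7*WT and 3 *Pax7*KR libraries, each a biological replicate on the C57BL/6J background, and the study states that its mice were 6 to 8 weeks old. *Pax7*KR mice carry arginine in place of an acetylated lysine of PAX7, the transcription factor that marks satellite cells, in every cell of the animal. The allele was made with Cas9 in zygotes, and the cells received no treatment, so the comparison asks whether freshly isolated, uninjured stem cells of the 2 genotypes differ in residual proliferation.

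A dividing cell first licenses its origins of replication by loading the MCM2-7 helicase, then fires them in S phase under cyclin E and cyclin A kinases, and then enters mitosis under cyclin B and CDK1. The genes of the first step are induced around the G1/S boundary, largely by E2F factors, and those of the last step in G2 and M phase, through CCAAT boxes and elements known as CHR. Most satellite cells of uninjured adult muscle are quiescent, a state outside the cycle from which injury recruits them, and mitotic transcripts such as *Mki67* are used in the field as a readout of cells that are cycling.

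The members were split by these textbook roles into 18 genes of the G1/S step and 18 of G2/M, and their promoters showed the same division in sequence. RefSeq promoter windows on GRCm38.p6, from 250 bases before to 50 bases after the annotated start, were found for 30 members, in 31 windows. The 6 others were *Ccna2*, *Ccne2*, *Mcm4*, *Aurkb*, *Gins2* and *Kif20a*. For *E2f1*, *Cdc6* and *Mcm7*, all G1/S members, the windows lay wholly inside the span that GENCODE gives the gene. They may therefore miss the sequence before its outermost start. Searched on both strands, the CHR letters TTTGAA or TTCGAA were in 12 of 15 G2/M windows (80%) and in 2 of 16 G1/S windows (12.5%), against 13.9% of the 14791 windows of genes tested and 19.2% of all windows. CCAAT was in 14 of 15 G2/M windows (93.3%) and 10 of 16 G1/S windows (62.5%), against 37.5% of tested and 37.4% of all windows. The E2F letters TTTNNCGC were in 8 of 16 G1/S windows (50%) and in 1 of 15 G2/M windows (6.67%), against 7.88% of tested and 5.17% of all windows. The G2/M window with the E2F letters was that of *Cdk1*. Letters of 2 different motifs overlapped in 1 of the 31 windows, and a match is a description of the letters only.

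Stretches from 190 bases before to 25 bases after the start are shown for 6 members, because they are the promoters of the helicase, mitotic and centromere genes whose levels are contrasted in the following paragraphs. They lie at chr8:75109319-75109533 on the plus strand (*Mcm5*), chr1:128359681-128359895 on the minus strand (*Mcm6*), chr10:69352888-69353102 on the minus strand (*Cdk1*), chr4:118437319-118437533 on the minus strand (*Cdc20*), chr2:118598021-118598235 on the plus strand (*Bub1b*) and chr5:30666696-30666910 on the plus strand (*Cenpa*). Matches in the rest of the windows are not shown, such as TTTGAA at base 41 of *Bub1b* counted from its start. Each is written 5′ to 3′ along its gene, and capitals mark the 4 searched motifs on either strand (ATTGG is CCAAT read on the other strand).
Mcm5: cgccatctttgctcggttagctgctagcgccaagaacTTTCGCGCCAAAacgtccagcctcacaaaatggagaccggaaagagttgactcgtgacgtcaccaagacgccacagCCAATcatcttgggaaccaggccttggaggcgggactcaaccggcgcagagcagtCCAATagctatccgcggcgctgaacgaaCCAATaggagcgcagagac
Mcm6: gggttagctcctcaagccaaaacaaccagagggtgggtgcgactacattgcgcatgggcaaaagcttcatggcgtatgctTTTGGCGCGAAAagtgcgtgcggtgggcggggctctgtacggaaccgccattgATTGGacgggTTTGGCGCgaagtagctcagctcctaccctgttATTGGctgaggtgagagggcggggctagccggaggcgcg
Cdk1: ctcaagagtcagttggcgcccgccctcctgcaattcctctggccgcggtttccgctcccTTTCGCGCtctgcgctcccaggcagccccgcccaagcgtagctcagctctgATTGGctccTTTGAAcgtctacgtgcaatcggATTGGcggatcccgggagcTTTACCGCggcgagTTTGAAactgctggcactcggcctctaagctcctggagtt
Cdc20: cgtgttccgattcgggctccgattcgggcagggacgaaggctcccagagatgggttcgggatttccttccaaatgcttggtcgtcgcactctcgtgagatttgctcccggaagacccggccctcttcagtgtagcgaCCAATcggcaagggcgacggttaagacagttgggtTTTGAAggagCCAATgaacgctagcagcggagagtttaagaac
Bub1b: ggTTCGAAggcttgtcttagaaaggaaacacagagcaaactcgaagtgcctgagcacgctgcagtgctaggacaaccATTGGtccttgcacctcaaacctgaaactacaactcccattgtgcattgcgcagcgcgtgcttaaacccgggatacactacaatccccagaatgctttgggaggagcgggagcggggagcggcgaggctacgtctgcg
Cenpa: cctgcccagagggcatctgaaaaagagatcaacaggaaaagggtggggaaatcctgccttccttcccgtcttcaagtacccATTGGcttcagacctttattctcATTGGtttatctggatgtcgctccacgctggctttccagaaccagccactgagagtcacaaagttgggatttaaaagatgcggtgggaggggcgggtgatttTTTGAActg

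The libraries held 17822367 to 27908054 estimated reads. Satellite cell markers were high in all 6, with *Pax7* between 1409 and 1666 CPM (counts scaled to the library size with TMM factors), a level that cannot check a single-residue change. The genes behind the sort were high for the positive and lower for the negative gates, with *Itga7* at 302 to 381 CPM and *Cd34* at 576 to 698 CPM, against *Ptprc* (CD45) at 0.0945 to 1.27, *Itgam* (CD11b) at 0.452 to 1.29, *Ly6a* (SCA-1) at 5.53 to 9.40 and *Pecam1* (CD31) at 20.7 to 50.4 CPM. The *Pax7*KR replicate 2 library stood apart in its 4 Y-linked transcripts, which summed to 130.7 CPM against 299.3 to 355.3 CPM in the other 5. *Xist* was at 0.437 to 2.29 CPM in all 6.

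The division by phase was also a division by level. On the TPM scale, which corrects for transcript length and can be compared between genes, the 18 G1/S members had a median of 8.21 TPM and the 18 G2/M members a median of 0.88 TPM, while the median of all genes tested was 11.9 TPM. Ranked among the genes tested, the median G1/S member stood at the 44.2nd percentile and the median G2/M member at the 20.3rd. Above 5 TPM were 12 G1/S members and a single G2/M member, *Bub1b*, and below 2 TPM were 6 G1/S and 15 G2/M members. These levels count all annotated transcripts of a gene, and for *Tyms*, among the 12, protein-coding transcripts held 12% of the TPM. Summed over members, the *Pax7*WT libraries held 300.2, 292.7 and 284.5 TPM of G1/S transcripts against 22.6, 22 and 36.2 TPM of G2/M transcripts. The *Pax7*KR libraries held 299.9, 320.3 and 313.2 TPM against 31.5, 29.1 and 31.6 TPM. The ratio of both sums was thus between 7.85 and 13.3 in every library, and between 12.4 and 20.5 with *Bub1b* left out of the G2/M sum. All 36 members together summed to 314.7 to 322.7 TPM in *Pax7*WT and 331.3 to 349.4 TPM in *Pax7*KR libraries, without overlap. In CPM these sums overlapped, at 389.0 to 405.3 and 400.8 to 424.5. The difference in the sums was not tested.

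**Figure D1:**
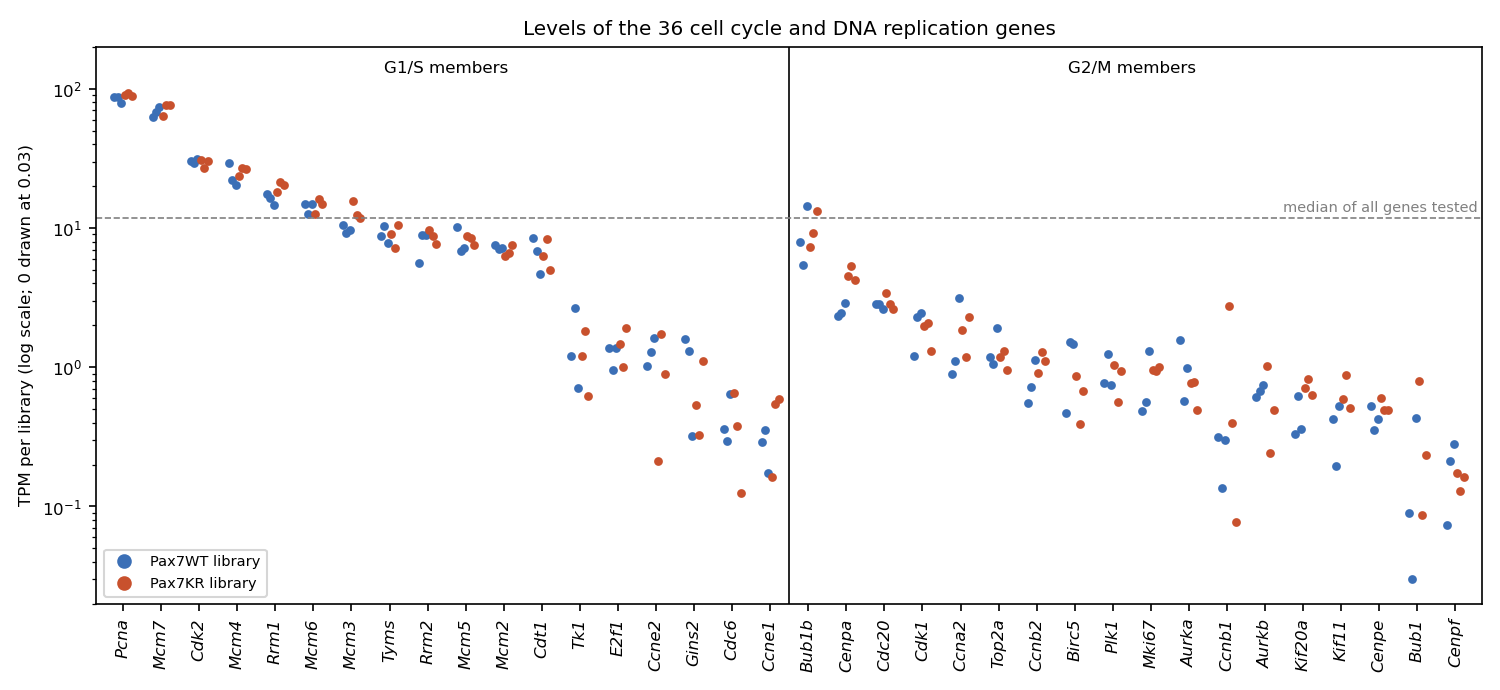
TPM of each member in each of the 6 libraries (vertical axis, log scale, with the single value of 0 drawn at 0.03), ordered by mean level within the G1/S and the G2/M members; blue points are Pax7WT and orange points Pax7KR libraries, and the dashed line is the median of all genes tested (11.9 TPM). A set of 12 G1/S members lies above 5 TPM, whereas Bub1b is the only G2/M member there.

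Between genotypes, no member passed the test. In edgeR's quasi-likelihood test with Benjamini-Hochberg adjustment over all genes, 0 of 36 members and 0 of 17152 genes (0%) had an adjusted p under 0.1. The unadjusted p was under 0.05 for 1 member (2.78%) and for 803 genes (4.68%). DESeq2 called 0 members and 30 genes (0.175%) at the same cut-off. Groups did not overlap in CPM for 5 members (13.9%) and for 10.3% of genes tested. The log2 fold change was above 0, that is higher in *Pax7*KR, for 23 of 36 members (63.9%) and for 49.0% of genes tested, with a median of 0.11 over the members and 0.00 over all genes. With the average transcript length of each library as an offset in edgeR, the members' median was 0.02 and 19 of 36 were above 0. The smallest adjusted p among the members was 0.992 in edgeR, 0.962 in edgeR with that offset and 0.697 in DESeq2 with it.

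**Figure D2:**
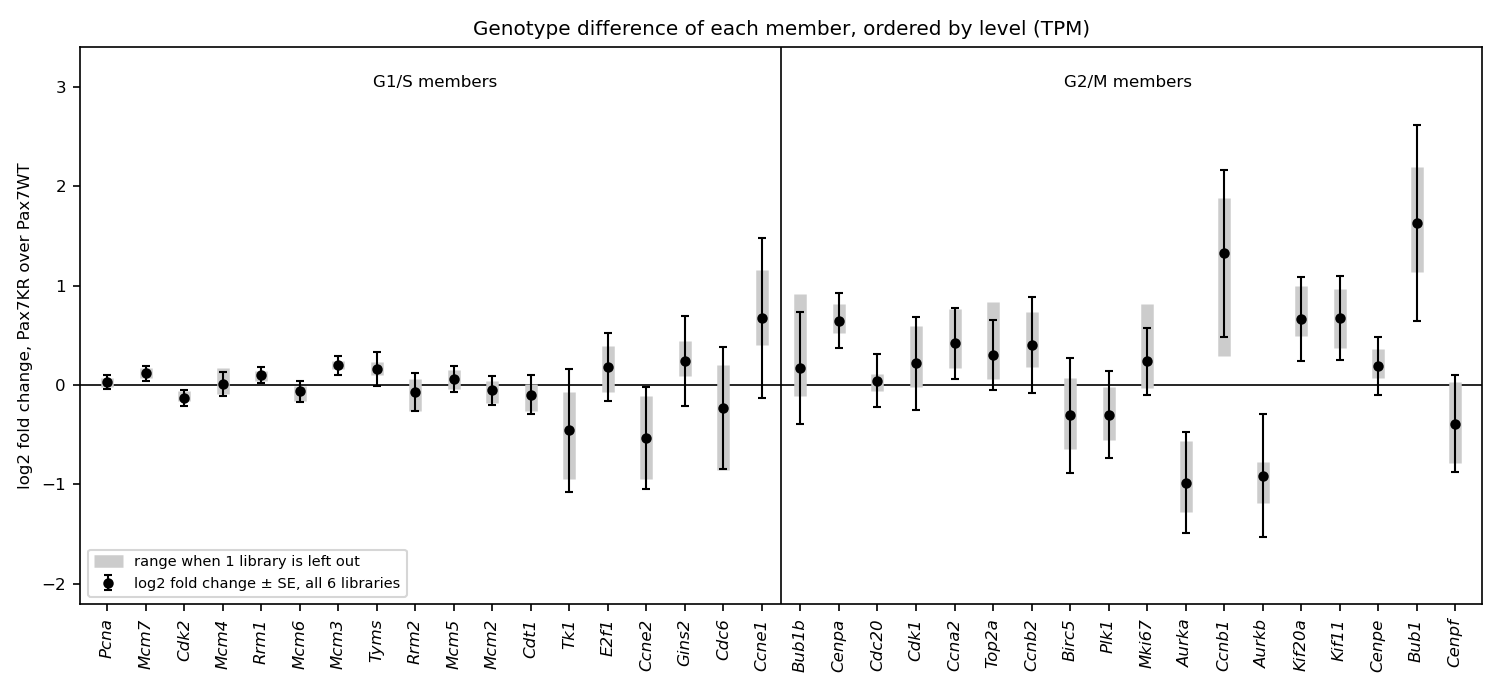
Log2 fold change of each member, Pax7KR over Pax7WT, with its standard error (black, n = 3 against 3) and the range of the estimate when each library is left out in turn (grey), in the same order as the plot of levels. Errors are small for the abundant replication genes, with a median SE of 0.16 for G1/S members, and large for the low mitotic genes, with a median SE of 0.45 for G2/M members.

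The helicase subunits *Mcm2* to *Mcm7*, which form the ring that unwinds DNA ahead of the fork, were well covered, with 173 to 1644 reads per library. Their mean levels ran from 7.04 TPM for *Mcm2* and 8.16 TPM for *Mcm5* to 24.9 TPM for *Mcm4* and 70.4 TPM for *Mcm7*, although they assemble into 1 complex. For *Mcm7*, 26.8% of the 31-base words in its transcripts are also found in other genes, mostly in *Gm5487*, so part of its reads could be assigned either way. *Mcm7* was at 59.3, 64.6 and 65.8 CPM in *Pax7*WT and 63.7, 68.8 and 73.6 CPM in *Pax7*KR libraries. These ranges overlapped, with a log2 fold change of 0.12 ± 0.07 (SE).

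*Mcm3* was the helicase gene whose groups did not overlap, with 18.9, 16.9 and 17.6 CPM in *Pax7*WT and 21.1, 20.2 and 20.04 CPM in *Pax7*KR libraries. All 3 *Pax7*KR libraries lay above all 3 *Pax7*WT libraries, and the log2 fold change was 0.20 ± 0.10 (SE; edgeR adjusted p = 0.992). With the length offset it was 0.38 ± 0.13 in edgeR (adjusted p = 0.962). Counting reads on protein-coding transcripts only, the groups overlapped, with 18.88 CPM in *Pax7*WT replicate 1 and 18.69 CPM in *Pax7*KR replicate 3, and retained-intron reads were 5.50%, 5.27% and 6.73% of the gene in *Pax7*KR against 0%, 0% and 1.96% in *Pax7*WT libraries. The other 5 helicase genes had log2 fold changes between -0.06 (*Mcm6*) and 0.12 (*Mcm7*), each within 2 SE of 0, and between -0.17 (*Mcm2*) and 0.033 (*Mcm4*) with the length offset in edgeR. *Mcm4* was at 60.4, 47.2 and 43.2 CPM in *Pax7*WT and 46.4, 53.0 and 53.1 CPM in *Pax7*KR libraries, so *Pax7*WT replicate 1 was its highest library and *Pax7*WT replicate 3 its lowest.

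*Cdt1*, *Cdc6* and *Gins2* each had a lower mean TPM than any of the 6 subunits of the ring. *Cdt1*, which brings MCM2-7 to the origin, had a mean of 6.60 TPM and 7.15 ± 1.49 CPM in *Pax7*WT against 6.67 ± 0.75 CPM in *Pax7*KR (SD, n = 3 each). *Cdc6*, its partner at the origin, had a mean of 0.41 TPM and 4 to 25 reads per library. *Gins2*, a subunit of the active helicase, had a mean of 0.86 TPM and 15 to 26 reads. Neither of these 2 can show a moderate difference at this depth, with SEs of 0.61 and 0.45 on the log2 scale.

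*Pcna*, the sliding clamp that holds DNA polymerase on its template, was the most abundant member at a mean of 88.1 TPM, the 90.8th percentile of genes tested. It was at 68.2, 66.3 and 59.9 CPM in *Pax7*WT and 65.2, 67.0 and 66.3 CPM in *Pax7*KR libraries, a log2 fold change of 0.03 ± 0.07 (SE). Its spread over the 6 libraries was 4.45% of the mean, against a median of 6.34% for the 4350 genes within a factor of 2 of its CPM. Of its 31-base sequences, 23.3% are shared with the pseudogene *Pcna-ps2*.

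Nucleotide supply genes also ranged widely in level. *Rrm1*, the large subunit of ribonucleotide reductase, had 18.1 TPM, and *Rrm2*, its cell-cycle regulated small subunit, had 8.27 TPM. *Rrm1* was at 36.9, 36.2 and 31.9 CPM in *Pax7*WT and 37.4, 37.5 and 37.9 CPM in *Pax7*KR libraries. Those groups did not overlap, but the gap between them was under 1 CPM and the log2 fold change was 0.10 ± 0.08 (SE; edgeR adjusted p = 0.998), or 0.23 ± 0.11 with the length offset. On protein-coding transcripts only they overlapped. *Rrm2* was at 9.34 ± 2.21 CPM in *Pax7*WT and 8.85 ± 1.23 CPM in *Pax7*KR (SD, n = 3 each). Thymidylate synthase, *Tyms*, had a mean of 8.95 TPM and a log2 fold change of 0.16 ± 0.17 (SE), which turned to -0.073 with the length offset. Its groups overlapped in CPM, but on protein-coding transcripts only they did not. There *Tyms* was at 0.83, 1.16 and 0.89 CPM in *Pax7*WT and 2.56, 3.52 and 1.19 CPM in *Pax7*KR libraries, a difference that was not tested. Thymidine kinase, *Tk1*, an S phase enzyme, had 1.37 TPM and 4 to 19 reads per library.

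Among cyclins and CDKs, *Cdk2*, the kinase partner of cyclins E and A, was far above its cyclins. Its mean was 29.9 TPM, against 0.35 TPM for *Ccne1*, 1.13 TPM for *Ccne2* and 1.75 TPM for *Ccna2*. *Cdk2* was at 45.6, 46.2 and 47.3 CPM in *Pax7*WT and 44.5, 38.2 and 44.6 CPM in *Pax7*KR libraries. The *Pax7*KR libraries all lay below the *Pax7*WT ones, with the lowest value in the library whose Y-linked transcripts were low, and the log2 fold change was -0.13 ± 0.08 (SE; edgeR adjusted p = 0.992). Without *Pax7*KR replicate 2 it was -0.06. *Ccne1* had 2 to 11 reads and *Ccne2* 7 to 44 reads per library.

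*Cdk1*, the kinase of mitotic entry, had a mean of 1.89 TPM and was thus far below *Cdk2* on the TPM scale. Its reads numbered 13 to 26 per library. *Ccnb1* and *Ccnb2*, the mitotic cyclins, had 0.66 and 0.95 TPM. *Ccnb1* was at 0.184, 0.169 and 0.438 CPM in *Pax7*WT and 1.36, 0.54 and 0.0945 CPM in *Pax7*KR libraries. Both the highest and the lowest library were *Pax7*KR, and they stood on 31 and 2 reads. The log2 fold change of 1.33 ± 0.84 (SE) fell to 0.29 without *Pax7*KR replicate 1, and 27.7% of the gene's 31-base sequences are shared, mostly with *Ccnb1-ps*. *E2f1*, the activating E2F among the members, had a mean of 1.35 TPM and a log2 fold change of 0.18 ± 0.34 (SE).

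*Bub1b*, which encodes the BUBR1 protein of the spindle assembly checkpoint, differed from the other G2/M members both in its level and in its spread. Its mean was 9.62 TPM, whereas *Cenpa*, the next highest G2/M member, had 3.64 TPM and *Bub1*, the paralogue of *Bub1b*, 0.27 TPM. Of the *Cenpa* TPM, 30.1% was on protein-coding transcripts, against 81.1% for *Bub1b*. *Bub1b* was at 9.66, 9.93 and 29.7 CPM in *Pax7*WT and 14.3, 18.7 and 22.4 CPM in *Pax7*KR libraries, on 176 to 609 reads. *Pax7*WT replicate 3 was the highest library and the other *Pax7*WT replicates the lowest, a 3.07-fold range. The SD over the 6 libraries was 44.6% of the mean, above that of 99.6% of the 4189 genes within a factor of 2 of its CPM, for which the median was 9.68%. Of its reads, 97.9% were on the protein-coding transcript, and 0% of its 31-base sequences are shared with other genes. The gene lies on GRCm38 at chr2:118598211-118641591. It made up between 23.3% and 42.3% of the summed TPM of the G2/M members in each library.

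*Mki67* and *Top2a*, the mitotic chromosome proteins most used to count cycling cells, had their highest value in the same library. *Mki67* was at 3.09, 3.61 and 8.28 CPM in *Pax7*WT and 5.77, 5.61 and 6.24 CPM in *Pax7*KR libraries. *Top2a* was at 1.73, 1.86 and 4.24 CPM in *Pax7*WT and 3.54, 3.48 and 2.60 CPM in *Pax7*KR libraries. For both genes, *Pax7*WT replicate 3 was above and the other *Pax7*WT replicates were below every *Pax7*KR library. The log2 fold changes were 0.24 ± 0.34 for *Mki67*, 0.30 ± 0.35 for *Top2a* and 0.17 ± 0.56 for *Bub1b* (SE; adjusted p = 0.998 each in edgeR). Each library was left out in turn, and these estimates turned on which *Pax7*WT replicate it was. They were -0.03, 0.065 and -0.11 without replicate 1, and *Top2a* and *Bub1b* were at 0.12 and -0.076 without replicate 2. Without replicate 3, which is named here because its values were seen to be the highest, they were 0.81, 0.84 and 0.91, with edgeR adjusted p-values of 0.869, 0.937 and 0.582. *Top2a* turned to -0.34 ± 0.32 with the length offset in edgeR, where *Bub1b* was at 0.04 ± 0.39. Levels per length were low, at a mean of 0.87 TPM for *Mki67* and 1.27 TPM for *Top2a*, the 20.2nd and 24.1st percentiles of genes tested. In bulk RNA, a larger share of cycling cells and more RNA per cell cannot be told apart.

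Some lists of markers of other cells were lowest or highest in the same libraries as these genes, and others were not. Of 8 erythroid markers listed, the 7 with a matched identifier, globins among them, were all detected in every library, and they summed to 193.2, 213.2 and 382.8 CPM in *Pax7*WT and 357.3, 332.1 and 565.3 CPM in *Pax7*KR libraries. The 17 G2/M members other than *Bub1b* summed to 21.2, 22.7 and 33.2 CPM in *Pax7*WT and 32.4, 28.02 and 30.3 CPM in *Pax7*KR libraries. *Pax7*WT replicates 1 and 2 were lowest for both sums, while the highest library was *Pax7*KR replicate 3 for the erythroid markers and *Pax7*WT replicate 3 for the G2/M members. These 7 erythroid markers all had a log2 fold change above 0, with a median of 0.66, and 0 passed the test. The 17 immune markers, of which *Cd3e* was at 0 in every library, summed to 23.0, 25.4 and 43.4 CPM in *Pax7*WT and 34.2, 29.6 and 23.6 CPM in *Pax7*KR libraries. Of the 16 tested, 10 had a log2 fold change above 0, with a median of 0.03 and 0 past the test. The unadjusted edgeR p was under 0.05 for 3 of them (2 higher and 1 lower in *Pax7*KR), against 4.68% of genes tested. Groups did not overlap for 4, against 10.3% of genes tested. Summed endothelial markers, all 13 of them detected, were at 325.2 to 409.4 CPM in *Pax7*WT and 358.4 to 501.6 CPM in *Pax7*KR, and 12 of 13 had a log2 fold change above 0, with a median of 0.37 and 0 past the test. The 5 tenocyte markers summed to 47.6, 39.1 and 80.3 CPM in *Pax7*WT and 52.4, 50.8 and 53.7 CPM in *Pax7*KR libraries, with the same highest and the same 2 lowest libraries as *Mki67*, and 2 of 5 were above 0. The sum of the 4 commitment markers, *Myod1* first among them, ran the other way, at 168.4, 161.3 and 109.4 CPM in *Pax7*WT and 115.2, 141.2 and 151.5 CPM in *Pax7*KR libraries. Gene by gene, 3 of the 4 were tested, and 2 of these 3 had a log2 fold change above 0, with a median of 0.68. The 10 smooth muscle and pericyte markers summed to 2697, 2917 and 2551 CPM in *Pax7*WT and 2612, 2606 and 2376 CPM in *Pax7*KR libraries. *Pax7*WT replicates 1 and 2 were their highest libraries, and 0 of 10 were above 0. Sums of fibro-adipogenic (4 of 8 above 0), Schwann and glial (3 of 7) and myofibre markers (3 of 11) overlapped between genotypes. The G1/S members moved little in CPM, with sums of 369.9, 356.4 and 342.4 CPM in *Pax7*WT and 354.1, 365.0 and 371.8 CPM in *Pax7*KR libraries. The part of these other cells and of commitment in the values of the members was not tested.

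**Figure D3:**
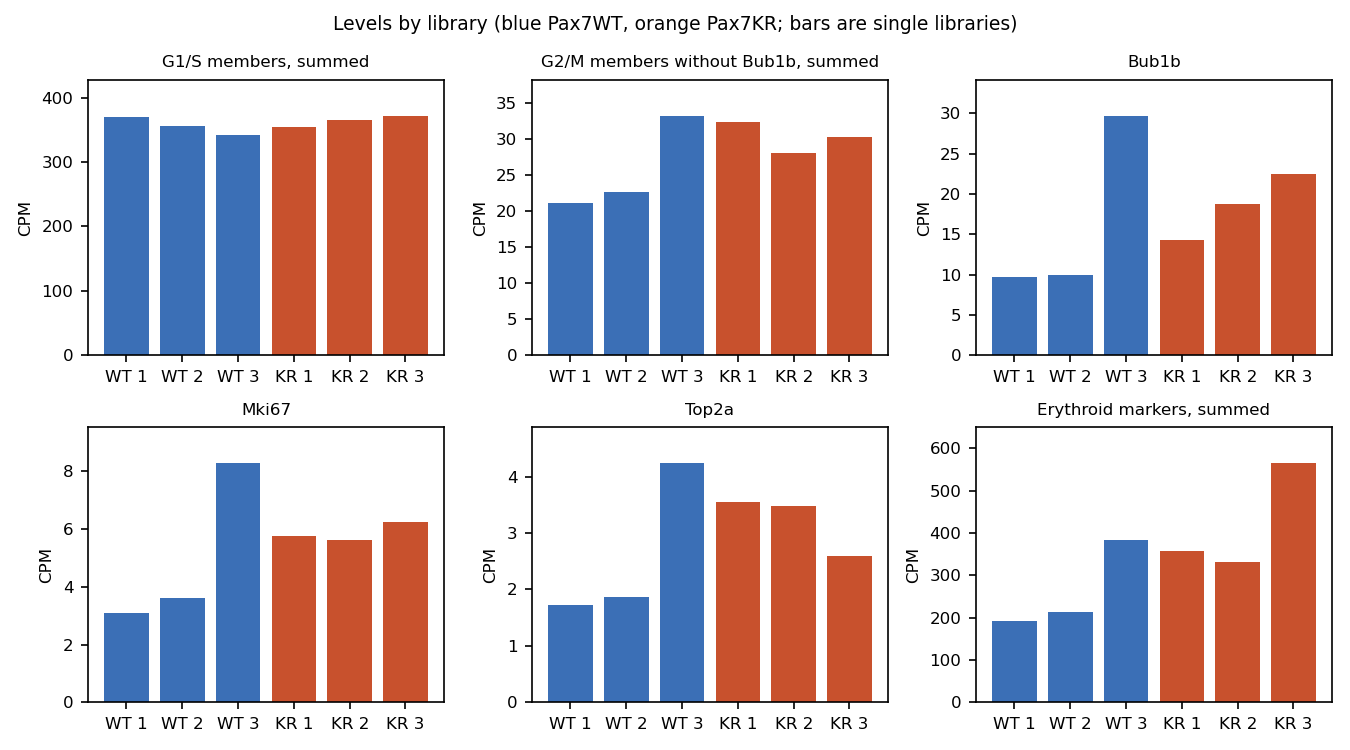
CPM in each library (1 bar per library, blue Pax7WT and orange Pax7KR, no error bars because each bar is a single sample) of the summed G1/S members, the summed G2/M members without Bub1b, Bub1b, Mki67, Top2a and the summed erythroid markers. The G1/S sum stays between 342.4 and 371.8 CPM, while in the other 5 panels Pax7WT replicates 1 and 2 are the lowest bars.

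The remaining mitotic kinases and regulators were near the limit of detection. *Aurkb*, the kinase of the chromosomal passenger complex, was at 0.661, 0.621 and 0.487 CPM in *Pax7*WT and 0.262, 0.251 and 0.425 CPM in *Pax7*KR libraries. The *Pax7*KR values all lay below the *Pax7*WT values, on 6 to 18 reads per library, and the log2 fold change was -0.91 ± 0.62 (SE; edgeR adjusted p = 0.992). With the length offset it was -0.41 ± 0.70, and on the TPM scale *Pax7*KR replicate 1 (1.02 TPM) was above all 3 *Pax7*WT libraries (0.607, 0.671 and 0.750 TPM). On protein-coding transcripts only the CPM groups stayed apart, at 0.661, 0.564 and 0.390 in *Pax7*WT and 0.151, 0.251 and 0.378 in *Pax7*KR libraries. *Aurka*, the centrosome kinase, had a similar estimate of -0.98 ± 0.51 with overlapping groups, at 1.69, 0.62 and 1.07 CPM against 0.787, 0.419 and 0.520 CPM. *Birc5*, the survivin subunit of the same passenger complex as *Aurkb*, had a log2 fold change of -0.30 ± 0.58 on 10 to 22 reads, which was -0.90 ± 0.63 with the length offset. *Plk1*, a kinase of mitotic entry and exit, had -0.30 ± 0.44 on 16 to 28 reads.

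*Cdc20*, which activates the anaphase-promoting complex (APC/C), was the steadiest of the low genes, at 2.75 ± 0.15 CPM in *Pax7*WT and 2.84 ± 0.36 CPM in *Pax7*KR (SD, n = 3 each). Its 31-base sequences are shared to 25.5%, mostly with *Gm7856*. *Bub1*, a checkpoint kinase, had the largest estimate of the 36, a log2 fold change of 1.63 ± 0.98 (SE; edgeR adjusted p = 0.992), but stood on 5, 0 and 3 reads in *Pax7*WT and 11, 4 and 10 reads in *Pax7*KR libraries. The count of 0 in *Pax7*WT replicate 2 allows a level of up to 0.169 CPM, taken as 3 reads and covering counting error only.

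Of the centromere and motor genes, 4 of 5 had a log2 fold change above 0 and 1 had an unadjusted p under 0.05. Their sums did not overlap, at 6.98, 7.34 and 8.67 CPM in *Pax7*WT and 10.5, 9.63 and 10.1 CPM in *Pax7*KR libraries, which was not tested. The CPM sums of the other functional groups of members overlapped. *Cenpa*, the histone H3 variant that marks centromeres, was at 1.98, 2.37 and 2.39 CPM in *Pax7*WT and 3.76, 2.68 and 4.11 CPM in *Pax7*KR libraries. Its groups did not overlap, the log2 fold change was 0.65 ± 0.28 (SE), a 1.57-fold difference, and the edgeR p was 0.0373 with an adjusted p of 0.992. On protein-coding transcripts only the groups overlapped, at 0, 0.49 and 1.11 CPM in *Pax7*WT and 0.81, 0.68 and 0.75 CPM in *Pax7*KR libraries. The estimate lay between 0.52 and 0.81 with any 1 library left out, where the edgeR p ran from 0.0172 to 0.1245. The edgeR p was 0.0585 with the replicate block and 0.0147 with the length offset. *Kif11* and *Kif20a*, motors of the spindle and of cytokinesis, had estimates of 0.67 ± 0.42 and 0.67 ± 0.42 on 10 to 57 and 14 to 35 reads, and *Kif11* was at 0.37 without *Pax7*WT replicate 2 and at 0.42 without *Pax7*KR replicate 2. *Cenpe*, a kinetochore motor, had 0.19 ± 0.29, and *Cenpf*, a kinetochore protein, -0.39 ± 0.49.

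For 4 members, most reads were assigned to transcripts that are not annotated as coding. *Cenpa* had 21.5% of its reads on protein-coding transcripts, with 53.7% on retained-intron and 24.8% on nonsense-mediated decay transcripts. *Tyms* had 24.1% on protein-coding, 35.6% on retained-intron and 39.8% on nonsense-mediated decay transcripts. *Tk1* had 32.9% on protein-coding transcripts, though on 79 reads over all 6 libraries. *Cdk2* was the well-covered case, with 5903 reads, of which 46.9% were on protein-coding and 53.0% on retained-intron transcripts. The *Cdk2* coding share was 44.3 ± 5.63% in *Pax7*WT and 49.1 ± 4.16% in *Pax7*KR libraries (SD, n = 3 each), and the libraries of both genotypes overlapped. The groups did not overlap in coding share for *Top2a*, at 78.5%, 88.1% and 93.5% in *Pax7*WT and 98.8%, 97.8% and 97.8% in *Pax7*KR libraries. Nor did they for *Mcm2*, also higher in *Pax7*KR, or for *Mcm3* and *Rrm1*, which were lower. How often coding shares do not overlap among all genes tested was not computed, so the number of such members is not interpreted. None of these shares was tested. By TPM rather than reads, less than 50% lay on coding transcripts for 6 of 36 members (16.7%) and for 1651 of 13971 protein-coding genes tested (11.8%). How salmon divides reads among overlapping transcripts sets these shares.

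**Figure D4:**
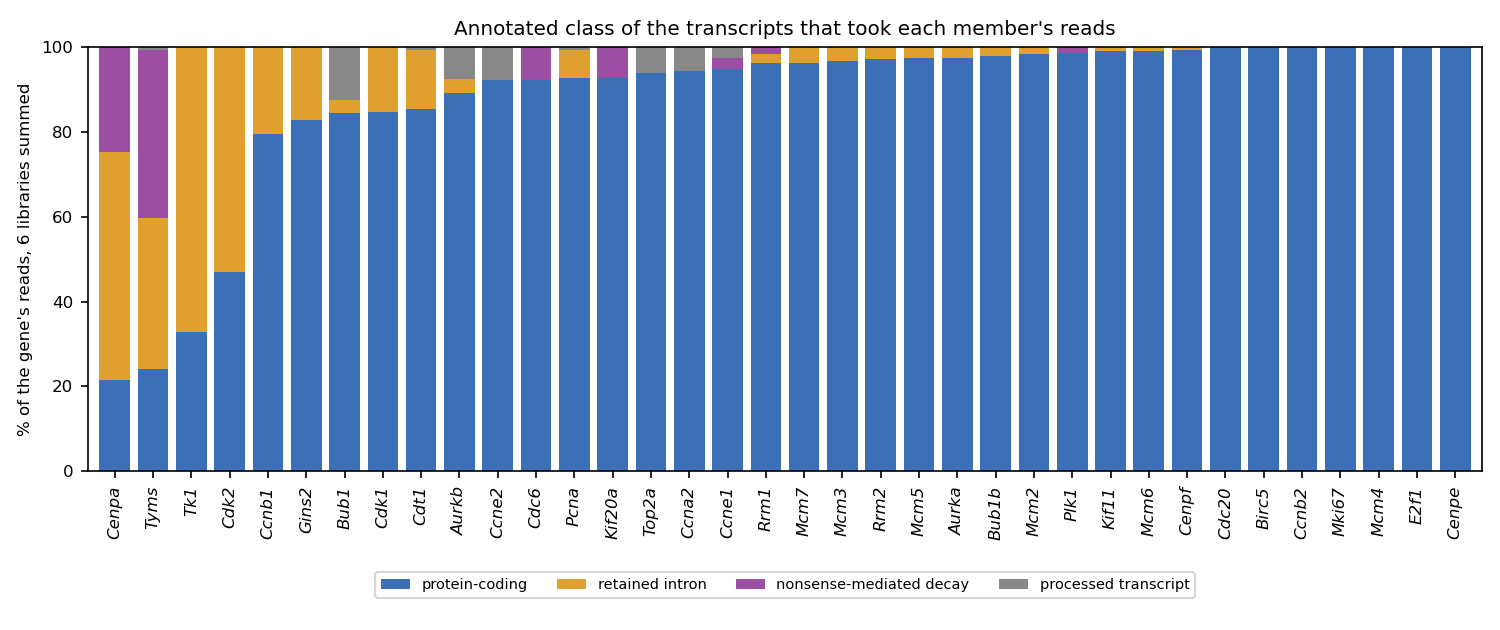
Share of each member's reads, summed over the 6 libraries, by the annotated class of the transcript to which salmon assigned them, ordered by the protein-coding share. Cenpa, Tyms, Tk1 and Cdk2 at the left have under 50% of their reads on protein-coding transcripts, while Mki67 and E2f1 are among those at the right whose reads are nearly all on them.

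Beyond the members, 182 further cell cycle genes were followed in 6 lists, of which 180 were tested. In edgeR, 0 had an adjusted p under 0.1, 7 had an unadjusted p under 0.05 (5 higher and 2 lower in *Pax7*KR), and the median log2 fold change was 0.02. As with the members, their summed TPM did not overlap, at 3248 to 3331 in *Pax7*WT and 3396 to 3416 in *Pax7*KR libraries. Their summed CPM overlapped, at 4696 to 4803 and 4709 to 4823. Of 54 tested replication genes, 29 had a log2 fold change above 0, with a median of 0.04; the highest by level were *Orc4* (62.6 TPM) and *Orc6* (56.3 TPM), subunits of the origin recognition complex, and *Pold4* (54.6 TPM), a subunit of DNA polymerase delta. Of 37 kinetochore and checkpoint genes, 20 were above 0, with a median of 0.02. Their highest were *Hjurp*, the chaperone that deposits CENP-A, at 119.2 TPM, *Bub3* at 49.8 TPM and *Mad1l1* at 26.7 TPM. *Hjurp* was thus far above *Cenpa* itself, and was at 194.5, 206.9 and 230.0 CPM in *Pax7*WT and 229.7, 244.3 and 212.4 CPM in *Pax7*KR libraries, a log2 fold change of 0.12 ± 0.07 (SE).

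The highest genes of the other 4 lists all had a higher mean TPM than any G2/M member. Of 17 condensin, cohesin and separase genes, 10 were above 0, with a median of 0.01, and the highest were the cohesin genes *Smc1a* (129.5 TPM), *Rad21* (100.5 TPM) and *Stag2* (89.8 TPM). Of 30 kinases, phosphatases and APC/C genes, 19 were above 0, with a median of 0.03, led by *Anapc5* (297.0 TPM), *Cdc25b* (86.7 TPM) and *Anapc2* (85.1 TPM). Of 26 spindle and cytokinesis genes, 14 were above 0, with a median of 0.07, led by *Ckap5* (27.1 TPM), *Kif2a* (18.7 TPM) and *Tacc3* (12.8 TPM). Of 16 transcription factors and their partners, 8 were above 0, with a median of 0.00, led by *Rbbp4* (89.0 TPM), a histone-binding partner of RB, and by *E2f6* (45.9 TPM) and *E2f4* (45.1 TPM), which act mainly as repressors.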

How the data were processed

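RNA was sequenced from 3 Pax7WT and 3 Pax7KR samples, grouped by their labels. With Salmon (version 1.3.0) on GRCm38 the authors estimated the reads of every transcript and deposited these estimated counts, not normalized, with effective lengths; they also deposited TPM values, used here summed per gene as levels per length. A deposited table of the authors' own comparison (log2 fold changes and p-values) was not used. Of 140992 transcripts, 139791 were matched to genes of GENCODE vM21, an earlier release than the authors' on the same build; the others held 0.606% of reads and were left out. Estimated counts were summed per gene and rounded. Genes reaching 5 reads in at least 2 libraries entered a test of genotype in edgeR (version 4.0.16; TMM, robust quasi-likelihood, Benjamini-Hochberg over all genes, cut-off 0.1), with DESeq2 (version 1.42.0) as an alternative beside other normalizations, filters, a length offset, a replicate block and each library left out. The fit was tested on simulated data. Replicates of a group differed by more than counting noise. The same-number replicates of both genotypes did not deviate together (correlations of 0.00, 0.03 and -0.04). A 31-base sequence counts as shared if a transcript of another gene holds it. All 36 members are named, with the 3 highest genes by TPM of each further list, the sort gates and the first gene of some cell type lists. Members and lists were chosen with earlier results of these data known.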

Additional observations from a re-analysis of the deposited data

How the results depend on the processing

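No member had an adjusted p under 0.1 under any of the 16 other fits or at a cut-off of 0.05, and the direction held under all of the fits for 19 of 36 members. The number of genes called, 0 in edgeR, was 30 in DESeq2, 45 in DESeq2 with the length offset, 157 with no filter on low counts and 13 with the replicate block, and 1 to 32 with 1 library left out, the most without Pax7KR replicate 3; these genes hold no member. Members with an unadjusted p under 0.05 numbered 2 with the length offset in either tool and with at least 10 reads in every library, 0 with the replicate block, which left 23 members above 0, and 0 to 3 with 1 library left out. The members' median log2 fold change was 0.022 in DESeq2 with the length offset. With that offset in edgeR and DESeq2, the log2 fold change turned for Top2a (-0.34 and -0.34), Cdk1 (-0.19 and -0.19), Mcm5 (-0.028 and -0.028), Rrm2 (0.094 and 0.095), Tyms (-0.073 and -0.073) and Gins2 (-0.75 and -0.76); the cause was not tested. With 1 library left out, the estimate crossed 0 for 14 members, over ranges of -0.026 to 0.81 for Mki67, -0.021 to 0.60 for Cdk1, -0.18 to 0.042 for Mcm2, -0.085 to 0.17 for Mcm4, -0.038 to 0.15 for Mcm5, -0.023 to 0.069 for Pcna, -0.26 to 0.063 for Rrm2, -0.11 to 0.91 for Bub1b, -0.061 to 0.12 for Cdc20, -0.85 to 0.20 for Cdc6, -0.26 to 0.011 for Cdt1, -0.79 to 0.030 for Cenpf, -0.65 to 0.070 for Birc5 and -0.074 to 0.39 for E2f1. Counting protein-coding transcripts only, the mean summed TPM was 250.3 in place of 301.8 for the G1/S members and 22.01 in place of 28.8 for the G2/M members. Without Pax7WT replicate 3, a setting chosen after seeing the data, these were 305.2 and 27.4. Depth limits the low genes: 7 of 36 members had under 10 reads in at least 1 library.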
